A study of Mus musculus with 2 samples.

Results

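LTR retrotransposon transcripts were those nascent transcripts whose midpoint lay in a repeat of the LTR class. They were taken from the detailed annotation column of both Global Run-On sequencing (GRO-seq) transcript lists, by the class field LTR. The rule gave 1490 of 43122 transcripts in the control library and 1800 of 51365 in the IL-4 library, or 3290 of 94487 in all. No measured value entered the choice.

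The study compared unstimulated bone marrow-derived macrophages with the same kind of cells after IL-4. Both groups were wild-type C57BL/6 cells from mice aged 8 to 12 weeks, differentiated for 6 days in L929 cell supernatant, which the labels give as M-CSF. One group received IL-4 at 20 ng/ml for 1 hr and the other was left unstimulated. Run-on reactions were performed in duplicate and pooled, so there was 1 library per condition. No difference between the conditions therefore has a replicate check, and intervals below cover counting of transcripts only, with neighbouring transcripts of a gene not independent. In such bulk libraries, fewer cells making a transcript and less RNA per cell cannot be told apart.

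LTR retrotransposons are descendants of retroviruses that were copied into the genome. Their flanking long terminal repeats carry promoter sequence, and most copies persist as single LTRs after recombination has removed the inner genes. In mouse, the ERVK family holds the younger elements such as intracisternal A particles, while ERVL and the non-autonomous ERVL-MaLR elements (ORR1, MT, MLT) are mostly older. Copies in introns can also be transcribed as a part of the host gene.

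Sequences of 8 LTR transcripts are shown because they could be read from exons of annotated non-coding or intron-retaining transcripts in GENCODE M21 (GRCm38, the same assembly as mm10). They are the 6 matched pairs with the highest score, and the highest-scoring transcript without a counterpart in each library, among those with at least 100 readable bases. The run in Ptprj was read from an exon of a non-coding gene on the other strand. Internal (-int) and murine leukemia virus-like elements were left out. Each runs 5′ to 3′ on the transcribed strand and shows at most 250 bases. Capitals mark bases inside the called transcript of both libraries, and lower case marks bases called in 1 library. The element name is that at the transcript midpoint, so bases shown may lie outside the LTR copy.
RMER17B2 in Clcn7, chr17:25158655-25158882 (plus strand): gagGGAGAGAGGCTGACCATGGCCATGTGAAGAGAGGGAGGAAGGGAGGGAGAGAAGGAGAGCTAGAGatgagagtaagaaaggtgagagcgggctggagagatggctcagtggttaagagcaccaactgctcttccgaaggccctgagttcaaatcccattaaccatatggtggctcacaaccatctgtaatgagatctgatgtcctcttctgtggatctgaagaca
RLTR20A4 in Zeb2, chr2:45021552-45021801 (minus strand): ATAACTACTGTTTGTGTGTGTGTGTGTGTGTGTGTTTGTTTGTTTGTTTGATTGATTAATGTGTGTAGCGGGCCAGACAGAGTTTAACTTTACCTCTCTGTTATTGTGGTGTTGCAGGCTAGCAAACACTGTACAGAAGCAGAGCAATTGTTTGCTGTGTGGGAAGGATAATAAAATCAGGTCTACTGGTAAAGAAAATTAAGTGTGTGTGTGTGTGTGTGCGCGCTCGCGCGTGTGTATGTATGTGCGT
RMER10B in Atp6v1b2, chr8:69103128-69103271 (plus strand): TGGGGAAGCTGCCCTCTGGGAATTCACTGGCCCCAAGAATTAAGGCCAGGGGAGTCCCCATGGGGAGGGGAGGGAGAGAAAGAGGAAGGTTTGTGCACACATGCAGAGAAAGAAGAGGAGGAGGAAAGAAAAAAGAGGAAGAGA
RMER17B2 in Phf3, chr1:30813571-30813792 (minus strand): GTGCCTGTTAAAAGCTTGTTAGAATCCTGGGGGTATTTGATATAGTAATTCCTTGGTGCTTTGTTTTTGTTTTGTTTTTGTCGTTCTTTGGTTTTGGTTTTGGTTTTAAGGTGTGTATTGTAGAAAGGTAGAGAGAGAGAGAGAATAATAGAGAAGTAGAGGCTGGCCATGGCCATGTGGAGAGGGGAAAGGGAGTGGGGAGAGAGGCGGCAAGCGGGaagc
RLTR11C_MM in Ptprj, chr2:90483895-90484144 (minus strand): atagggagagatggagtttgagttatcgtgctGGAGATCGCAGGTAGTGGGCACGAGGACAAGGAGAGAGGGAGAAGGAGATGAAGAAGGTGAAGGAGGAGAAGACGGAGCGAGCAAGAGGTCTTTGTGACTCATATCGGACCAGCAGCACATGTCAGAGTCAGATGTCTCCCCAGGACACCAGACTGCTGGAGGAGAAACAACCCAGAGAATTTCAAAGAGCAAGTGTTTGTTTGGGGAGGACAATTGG
RMER17C in Slc35f6, chr5:30652147-30652396 (plus strand): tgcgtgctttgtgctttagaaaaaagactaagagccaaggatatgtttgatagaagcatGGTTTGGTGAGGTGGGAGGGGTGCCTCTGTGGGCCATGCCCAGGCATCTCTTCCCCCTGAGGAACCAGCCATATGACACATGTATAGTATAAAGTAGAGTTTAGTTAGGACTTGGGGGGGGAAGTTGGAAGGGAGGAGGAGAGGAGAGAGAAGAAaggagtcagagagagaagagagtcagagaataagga
BGLII_B in Snrnp70, chr7:45391700-45391888 (minus strand): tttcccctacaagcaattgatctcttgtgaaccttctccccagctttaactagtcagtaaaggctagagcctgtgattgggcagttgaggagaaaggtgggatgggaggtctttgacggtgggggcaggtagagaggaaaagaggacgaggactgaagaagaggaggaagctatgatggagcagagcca
ORR1G in Fcgr2b, chr1:170964503-170964752 (minus strand): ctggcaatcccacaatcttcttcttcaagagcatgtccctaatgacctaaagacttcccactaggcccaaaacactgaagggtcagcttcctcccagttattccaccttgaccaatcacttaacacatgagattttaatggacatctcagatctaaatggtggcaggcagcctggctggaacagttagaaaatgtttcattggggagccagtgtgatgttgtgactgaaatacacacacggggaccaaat

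Several of these runs hold long stretches of A and G. Purines made up 74.3% of the bases shown for RMER10B in Atp6v1b2, a subunit of the vacuolar proton pump, and 67.6% for RLTR11C_MM in Ptprj, a receptor phosphatase. RLTR20A4 in Zeb2 instead held TG repeats at both ends, with G and T at 66.8%. In the 89 readable LTR stretches, 10 of 33 ERVK and 5 of 10 ERVL stretches held at least 60% purines, against 1 of 38 ERVL-MaLR stretches. The same threshold was reached by 91 of 876 (10.4%) readable repeat-free stretches in control and 82 of 1186 (6.91%) after IL-4. LINE stretches reached it in 9 of 41 (22.0%) and 5 of 49 (10.2%), against 16 of 89 (18.0%) over all LTR stretches. Stretches were readable only where an exon had been annotated, so these shares describe a small and selected set. They may also include bases outside the repeat copy at the midpoint.

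Letters of the STAT6 spacing, TTCNNNNGAA, were present in the middle 100 bases of 2 of 89 LTR stretches (2.25%) on either strand. Of 32851 RefSeq promoter windows of the same length (GRCm38.p6), 2.05% held them. With 3 bases between the ends the counts were 3 stretches (3.37%) against 2.79% of promoters. TATAAA stood in 2 stretches (2.25%) against 4.12% of promoters. GAGGAAGT, a core of PU.1 sites, was in none of the 89, where the 95% Wilson upper bound is 4.14%, and in 0.931% of promoters. Matches of the TTC forms may overlap each other. A match describes letters, may lie outside the LTR copy and is not a bound site.

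LTR transcripts made up 3.46% (95% Wilson interval 3.29 to 3.63) of control transcripts and 3.50% (3.35 to 3.67) after IL-4, so the increase from 1490 to 1800 went with a longer list of all transcripts. Among transcripts of 300 bp or longer the shares stood apart, at 2.66% (2.38 to 2.98) in control and 3.39% (3.18 to 3.61) after IL-4. Above score limits the order was the other way, but the intervals overlapped. With a score of at least 0.3 the share was 3.01% (2.80 to 3.23) in control and 2.64% (2.42 to 2.89) after IL-4. Among the 21561 highest scores of each library it was 2.96% (2.75 to 3.20) and 2.74% (2.53 to 2.96). Of the summed score times length, LTR transcripts held 0.829% in control and 1.16% after IL-4. For comparison, LINE transcripts numbered 1370 and 1736, and SINE transcripts 3843 and 5288. The LTR transcripts were short and low in score, a value that the caller gives each transcript and that is deposited to 1 decimal. Median length was 219 bp in control against 305 bp with IL-4, and the median score was 0.2 in both. In control, 52.5% had a score of 0.2 or less, and after IL-4 72.8% did. Over all transcripts the median length also moved from 227 to 312 bp and the share at 0.2 or less from 45.4% to 63.9%. The depth of the libraries is unknown, and its part in these shifts was not tested.

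By family, ERVK was the most frequent in control and ERVL-MaLR after IL-4, though with a score of at least 0.3 both were level after IL-4 (43.5% ERVK and 43.3% ERVL-MaLR). ERVK counted 663 transcripts (44.5%, interval 42.0 to 47.0) in control and 692 (38.4%, 36.2 to 40.7) after IL-4. ERVL-MaLR counted 577 (38.7%, 36.3 to 41.2) and 783 (43.5%, 41.2 to 45.8). The intervals of the ERVK share did not overlap between libraries, and those of ERVL-MaLR met at their edges. ERVL held 188 (12.6%) and 242 (13.4%), and ERV1 61 (4.09%) and 81 (4.50%). The remaining 1 and 2 transcripts carried another family name.

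**Figure D1:**
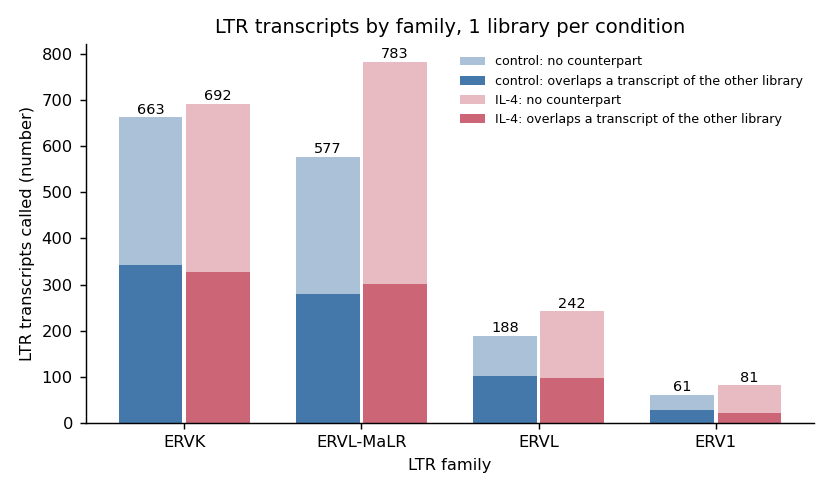
Number of LTR transcripts (vertical axis) by family, with control in blue and IL-4 in red, 1 library each. Dark segments overlap a transcript of the other library on the same strand and pale segments do not. ERVL-MaLR grew from 577 to 783, mostly in the pale segment, while ERVK moved from 663 to 692.

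The members spread over 329 element names, of which 256 occurred in control, 288 after IL-4 and 215 in both. The 10 most frequent names held 994 transcripts (30.2%). MTD, a MaLR element, was found 74 times in control and 109 times after IL-4. ORR1D1 went from 40 to 64, MTC from 42 to 55, ORR1E from 33 to 43, ORR1F from 26 to 40, and ORR1B1 from 25 to 39, all beside a rise of all LTR transcripts from 1490 to 1800. ORR1C2, a MaLR name just outside the 10, went from 32 to 25. Frequent ERVK names moved little: RMER17C was called 91 and 88 times, RLTR17B_Mm 30 and 36 times, and RMER17B 32 and 30 times. RMER10A, an ERVL name, was called 47 and 50 times. RLTR31D_MM (35 to 16) and RMER17C2 (34 to 17), both picked after their values were seen, were called far fewer times after IL-4.

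Groups known for young, mobile copies were rare. IAP elements gave 6 transcripts in control and 1 after IL-4, ETn and MusD 3 and 2, the MMERVK10C group 3 and 3, VL30 2 and 1, GLN 2 and 3, and the RLTR13 group 4 and 1. None of these groups had a score over 0.8. Murine leukemia virus-like ERV1 elements gave 17 and 21 transcripts and held the highest control score, described below. Names beginning with MERVL or MT2 gave 43 and 59, of which MT2B alone gave 23 and 26. BGLII gave 28 and 26. ORR1 (288 and 368) and MT (226 and 317) held the bulk of the MaLR transcripts. Names beginning with MLT and a digit, or with MST, gave 71 and 107. Those counts include MLT2 names, whose family is ERVL and not ERVL-MaLR. Reads of near-identical copies may have been placed at any one of them, so the counts of young groups are uncertain.

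Most LTR transcripts lay inside genes and ran in the direction of the gene. Introns held 1259 of 1490 (84.5%, 82.6 to 86.2) in control and 1539 of 1800 (85.5%, 83.8 to 87.1) after IL-4, and the rest, 231 and 261, were intergenic in RefSeq. Of the intronic ones, 1238 (98.3%, 97.5 to 98.9) and 1519 (98.7%, 98.0 to 99.2) lay on the strand of a GENCODE gene holding their midpoint, and 19 in each library were antisense only. The same share was 98.3% and 99.1% for LINE, 98.3% and 98.9% for SINE, and 96.9% and 97.1% for repeat-free intron transcripts, so the orientation was not particular to LTR elements. Of the intergenic LTR transcripts, 83 (35.9%) and 87 (33.3%) lay on the strand of a GENCODE gene, 17 and 10 lay antisense to one, and 131 and 164 lay outside any gene.

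Divergent starts, in which a transcript on the other strand begins within 500 bp and points away, mark many promoters and enhancers. They were found for 3 of 1259 intronic LTR transcripts in control (0.238%) and 6 of 1539 after IL-4 (0.390%). Over all intronic transcripts the share was 2.33% and 3.09%. Among intergenic LTR transcripts 3 of 231 (1.30%) and 7 of 261 (2.68%) had one, against 5.81% and 8.15% of all intergenic transcripts. In each class and library the LTR share was the lower, with the upper bound of its Wilson interval below the share of the whole class.

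LTR transcripts were often called in 1 library only. In control, 739 (49.6%, 47.1 to 52.1) had no counterpart, meaning no overlap of 1 bp or more with an IL-4 transcript on the same strand, and the share over all control transcripts was 37.4%. After IL-4, 1050 (58.3%, 56.0 to 60.6) had none, against 48.1% of all IL-4 transcripts. LINE transcripts were close, at 47.6% and 59.4%, and SINE transcripts were at 45.7% and 53.2%. Within the LTR class, ERV1 after IL-4 had the highest share, 59 of 81 (72.8%, 62.3 to 81.3), and ERVK the lowest, 365 of 692 (52.7%, 49.0 to 56.4). Low scores were more frequent among LTR transcripts than among all, and with a score of at least 0.3 the shares fell to 33.2% and 27.6%, against 22.5% and 19.7% of all.

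The LTR transcripts without a counterpart and with the highest scores differed in place between the libraries. After IL-4, 3 of the first 5 lay in Mrc1, the mannose receptor gene and a marker of alternative polarization. They were ORR1D2 in intron 15 (score 1.1), RMER13B in intron 3 (0.9) and RMER6C in intron 23 (0.8). The other two were ORR1C2-int in intron 1 of Snx29 (0.9), which encodes a sorting nexin, and RMER19B2 (0.9), an intergenic transcript at chr10:67556562-67557167. The last lay outside any GENCODE gene, 7909 bp from the nearest annotated start, that of Ado. In control the first 5 were RMER17C in Lipa, the lysosomal acid lipase gene (1.0), MTD-int in Dnajb14 (1.0), RLTR4_MM-int in Chd9 (1.0), ORR1D1 in Gas2l3 (0.9) and RLTR20A4 in Ppt2 (0.9), each in a different gene.

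Matched pairs were the transcripts of both libraries that were each other's best overlap on the same strand, with an LTR annotation on either side. There were 919, of which 563 were LTR in both libraries, 180 in control alone and 176 after IL-4 alone. Ratios of IL-4 to control scores were centred on the median of all 26395 pairs, which was -0.32 (log2) before centring. The median centred ratio of the LTR pairs was -0.09 (order-statistic interval -0.26 to 0). At least 2-fold higher were 100 LTR pairs (10.9%, 9.03 to 13.1), against 10.3% of all pairs. At least 2-fold lower were 147 (16.0%, 13.8 to 18.5), against 11.5% of all pairs. The higher share was thus near the background, and the lower share was above it. Lower pairs made up 13.8% (12.6 to 15) of SINE pairs and 12.9% (10.8 to 15.3) of LINE pairs, whose intervals overlap that of the LTR pairs. With 1 decimal and the centring, 0.1 in control and 0.2 after IL-4 counts as higher, whereas 0.2 and 0.1 does not count as lower. Over the whole range that rounding allows, 37 LTR pairs stayed higher (4.03%) and 42 stayed lower (4.57%), against 3.86% and 3.21% of all pairs, and for 421 pairs (45.8%) that range held 0. By score times length the order turned, with 192 LTR pairs higher (20.9%) and 166 lower (18.1%), against 19.2% and 17.1% of all pairs.

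**Figure D2:**
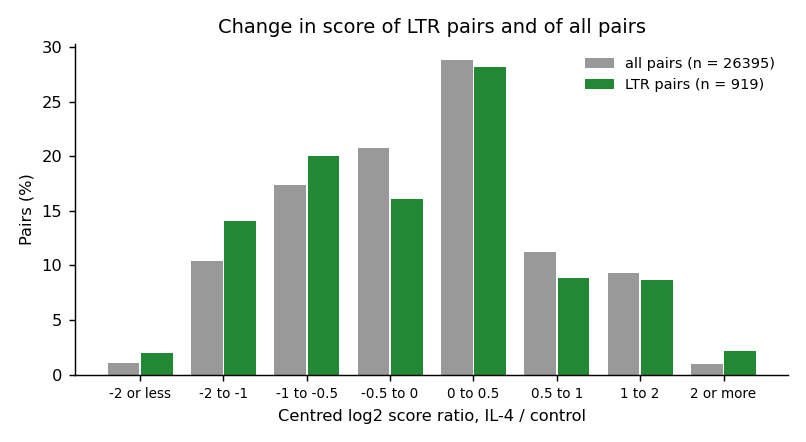
Share of pairs (vertical axis, percent) by centred log2 ratio of IL-4 to control score (horizontal axis), for the 919 LTR pairs in green and all 26395 pairs in gray. LTR pairs were 14.0% of their number between -2 and -1 against 10.4% of all pairs, and 2.18% at 2 or more against 0.981%.

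The lower pairs were more frequent among high scores. With a higher score of 1 or more, 33 of 103 LTR pairs (32.0%, 23.8 to 41.6) fell at least 2-fold, against 673 of 3430 pairs of any annotation (19.6%). A single element name, RLTR20A4, gave 11 of these 103 LTR pairs and 8 of the 33 lower ones. The share without it was not calculated, so the excess may not hold for LTR pairs in general. In that stratum 12 LTR pairs (11.7%) were higher, against 11.0% of all. Under 0.5 the lower share was 10.5% for LTR pairs and 7.08% for all. Intergenic LTR pairs were higher in 5 and lower in 22 of 113 (19.5%, 13.2 to 27.7), against 8.33% and 13.7% of 1633 intergenic pairs of any annotation. LTR pairs in no GENCODE gene were higher in 3 and lower in 12 of 60 (20.0%, 11.8 to 31.8), against 11.4% and 9.90% of 1878.

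**Figure D3:**
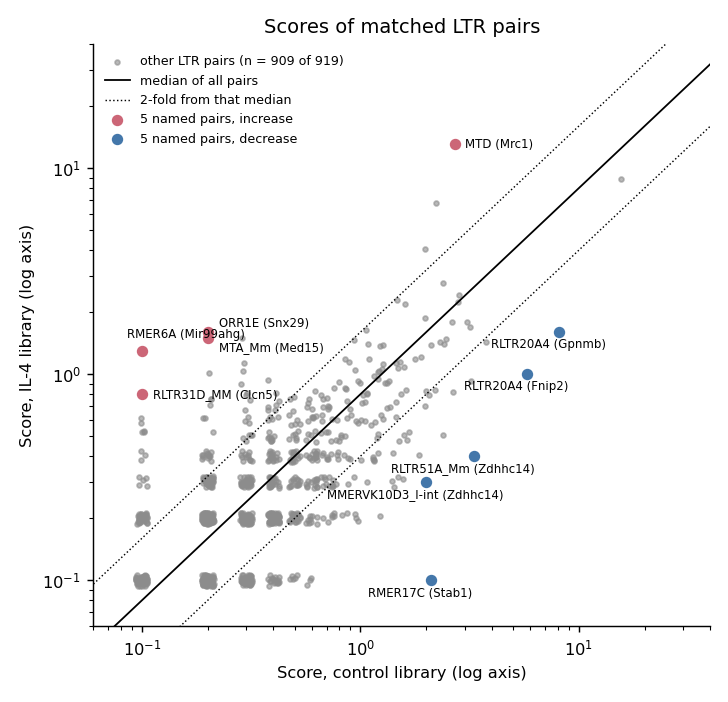
Scores of the 919 LTR pairs in control (horizontal axis) and after IL-4 (vertical axis), both on log axes, with tied gray points moved apart at random by up to 6%. The solid line is the median of all pairs and the dotted lines are 2-fold from it. The 5 increases with the largest ratio allowing for rounding (red) and the 5 decreases (blue) are named by element and host gene.

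The 5 largest increases lay in introns on the strand of the host gene. RMER6A in intron 2 of Mir99ahg, a long non-coding host gene of microRNAs, rose from a score of 0.1 to 1.3, or 4.02 in centred log2 ratio (3.38 to 5.08 with rounding). In the same intron, MTE2a had one of the 5 highest scores after IL-4 and went from 1.9 to 4.3. ORR1E in intron 13 of Snx29 went from 0.2 to 1.6 (3.32). MTA_Mm in intron 8 of Med15, a Mediator subunit gene, went from 0.2 to 1.5 (3.23), and RLTR31D_MM in intron 3 of Clcn5 from 0.1 to 0.8 (3.32). The control transcript of ORR1E and the IL-4 transcript of RLTR31D_MM had their midpoint outside the LTR copy.

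MTD in intron 1 of Mrc1 had the highest LTR score after IL-4. It lay at chr2:14236073-14236583, about 6.94 kb from the gene start, and went from 2.7 to 13.1 (2.60, with 2.57 to 2.63 allowed by rounding). The control transcript there was 235 bp long with its midpoint outside the MTD copy, and the IL-4 transcript was 511 bp long. Of the 5 increases, this one was the least affected by rounding.

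The 5 largest decreases also ran with their host genes. RMER17C in intron 18 of Stab1, a scavenger receptor gene, went from 2.1 to 0.1 (-4.07, -5.10 to -3.45). In intron 1 of Zdhhc14, a palmitoyltransferase gene, RLTR51A_Mm went from 3.3 to 0.4 (-2.72) and MMERVK10D3_I-int from 2.0 to 0.3 (-2.42). RLTR20A4 in intron 1 of Fnip2 went from 5.8, where the midpoint was annotated as a satellite, to 1.0 (-2.21). RLTR20A4 at chr6:49062251-49062511 went from 8.1 to 1.6 (-2.02); it is intergenic in RefSeq but lies on the strand of Gpnmb, a transmembrane glycoprotein gene, in GENCODE. The others among the highest control scores were ORR1F in Znrf1 (3.6 to 1.4) and RLTR20C1_MM in Fli1, an ETS factor gene (3.3 to 0.9).

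The highest score in control was antisense to its gene. RLTR4_MM-int in intron 3 of Cep85, at chr4:134160225-134160415, scored 14.7 there and 9.4 with IL-4. MTEb in intron 1 of Tbc1d4 was among the highest after IL-4 and went from 2.3 to 2.9. Among transcripts in no GENCODE gene, RLTR14 on chromosome 17 led in control (2.5, and 1.4 after IL-4) and MLTR14 on chromosome 9 led after IL-4 (2.2, and 1.5 in control). Each was 49 bp long where it led.

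RLTR20A4, the ERVK element of which the Zeb2 copy is shown above, gave 31 pairs with a median centred ratio of -0.68. It was named here after its values were seen. At least 2-fold lower were 11 pairs and higher were 2, and 7 and 2 stayed so over the rounding range. Among the 11 with a higher score of 1 or more, 8 were lower. They lay in several genes, among them Fnip2, Man1c1 (2.4 to 0.5), Fnbp1 (1.6 to 0.5), Atp13a2 (2.5 to 0.8) and Ikbke (1.1 to 0.4), and 2 lay in Gpnmb. The exceptions were Bcar3, where RLTR20A4 went from 2.3 to 7.0 (1.93), Tcf7l2, from 0.3 to 1.1 (2.20), and Zeb2, from 1.2 to 1.0 (0.06). In most pairs the transcript of the other library was annotated as something else, such as a (TG)n or (CA)n repeat or the intron itself. Only 6 pairs were LTR in both libraries (1 higher, 3 lower). Leaving RLTR20A4 out, 136 of 888 LTR pairs (15.3%) were lower.

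By host, LTR transcripts on the strand of a gene were found in 1264 genes. They were more numerous after IL-4 in 549, fewer in 479 and equal in 236. The count rose most in Snx29, from 9 to 29, while its other transcripts went from 61 to 185. Uvrag, an autophagy gene, went from 5 to 17 (other transcripts 26 to 120), Ppm1h from 6 to 17 and Tbxas1, the thromboxane synthase gene, from 7 to 17. Dock10, Fchsd2 and Osbpl3 had none in control and 11, 10 and 10 after IL-4, and their other transcripts went from 10 to 127, from 9 to 136 and from 1 to 55. Counts fell in Aoah, whose product inactivates lipopolysaccharide (10 to 4), St18 (10 to 5), Zdhhc14 (14 to 10) and Man1c1 (7 to 3). Other transcripts fell along with them in Aoah (43 to 30), Zdhhc14 (96 to 40) and Man1c1 (85 to 37), but not in St18 (27 to 30).

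**Figure D4:**
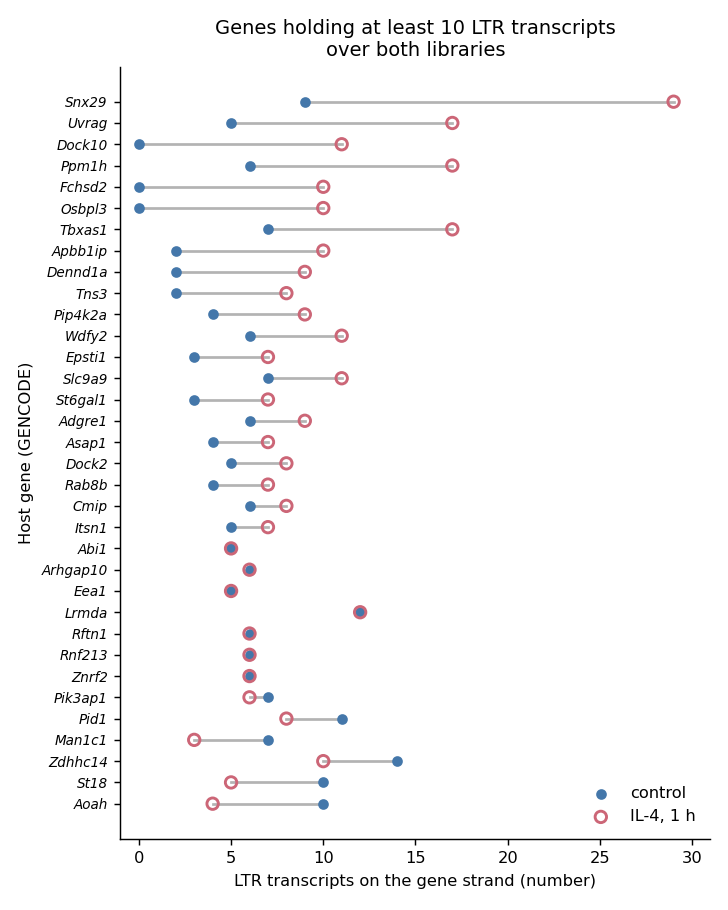
Number of LTR transcripts on the gene strand (horizontal axis) in control (filled blue) and after IL-4 (open red) for the 34 genes with at least 10 over both libraries. Snx29 moved from 9 to 29 and Aoah from 10 to 4, 7 genes kept their number, and Dock10, Fchsd2 and Osbpl3 started at 0.

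LTR pairs and other pairs of a gene moved alike in part. In 418 genes with at least 1 LTR pair and 3 other pairs, the median ratio of the LTR pairs followed that of the others with Spearman's rho 0.45 and Pearson's r 0.54, over genes that share both libraries. The LTR median was at least 2-fold higher in 40 genes, and in 35 of these the median of the other pairs was above 0. It was at least 2-fold lower in 60, and in 47 the others were below 0. How many of all 418 genes had other pairs above or below 0 was not counted, so these counts have no background. In Snx29, 6 of 10 LTR pairs were at least 2-fold higher and none was lower (median 1.82), and the 48 other pairs had a median of 1.06.

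In Mrc1, IL-4 gave 7 LTR transcripts in 6 introns and control gave none. Scores were 13.1 (MTD), 1.1 (ORR1D2), 0.9 (RMER13B), 0.8 (RMER6C), 0.7 (RLTR16B_MM), 0.4 (BGLII_B2) and 0.2 (RMER3D-int). They lay from 6.94 to 95.3 kb from the gene start, among 90 other transcripts with scores of 0.1 to 10.0. Control had 21 other transcripts, with scores of 0.1 to 2.7.

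In Snx29, the added LTR transcripts lay toward the start of the gene. Within 170 kb of the start, a limit chosen after the values were seen, there were 3 LTR transcripts in control and 23 after IL-4. Beyond it there were 6 in each. Other transcripts went from 35 to 118 within the limit and from 26 to 67 beyond it. Over all remaining host genes longer than 200 kb, 165 of 251 LTR transcripts in control (65.7%) and 211 of 332 after IL-4 (63.6%) lay within 170 kb. In those of them whose highest score was at least 2-fold higher after IL-4, the LTR transcripts within 170 kb went from 6 of 11 (54.5%) to 40 of 54 (74.1%). The 11 lay in 6 genes and the 54 in 12, so the genes compared were not the same. Other transcripts of the genes chosen in this way went from 119 of 238 (50%) to 679 of 1024 (66.3%). A difference in that direction was thus also seen outside Snx29 and in other transcripts, in genes chosen by their IL-4 scores.

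**Figure D5:**
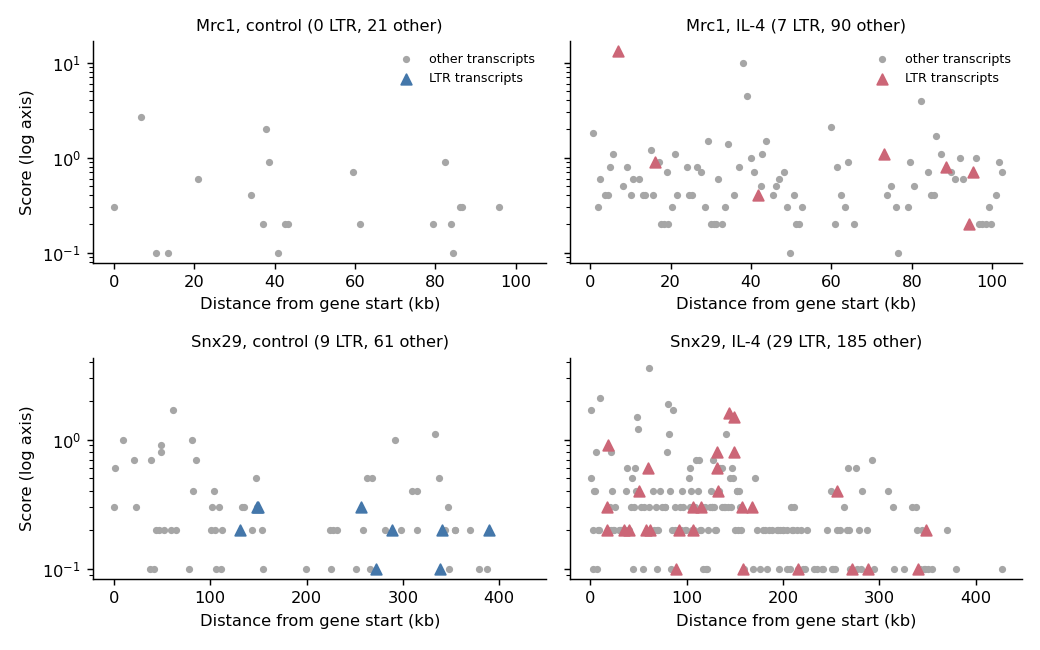
Score (vertical log axis) of each transcript against its distance from the gene start (horizontal axis, kb) in Mrc1 (top) and Snx29 (bottom), control on the left and IL-4 on the right. Triangles are LTR transcripts and gray points are other transcripts on the gene strand. Mrc1 had 0 LTR transcripts in control and 7 after IL-4, and in Snx29 23 of 29 IL-4 triangles lie within 170 kb.

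A list of 40 genes tied to the IL-4 response held 1 LTR transcript in control, in Stat6, and 17 after IL-4, in or nearest to 10 genes. Besides Mrc1, these included Tfrc (RMER6BA, 0.5, with a control counterpart of 0.5 that was not LTR), Il4ra (ORR1F, 0.3), Batf3, Ppard, Pdcd1lg2, Ccl24, Il4i1 and Chst7. Transcripts of any annotation also rose in most of the 40 genes, as in Mrc1 (21 to 97) and Batf3 (3 to 22). In Stat6 they went from 11 to 10. The rise was thus not confined to LTR transcripts, which were 3.46% and 3.50% of all transcripts of the libraries. Of the 40 genes, 15 had a score in both libraries, taken as the highest score within the gene on its strand. At least 2-fold higher were 6, among them Mrc1, Socs1, Il4ra and Kdm6b, against 8.09% of 7944 genes, and none was lower. The list was drawn up with earlier results of these data known, so it is no independent evidence of its direction. Socs1, a feedback inhibitor of cytokine signaling, went from 0.3 to 2.5 without an LTR transcript.

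A list of 10 genes that the study names as lower after IL-4 held 2 LTR transcripts in control and none after IL-4. RLTR31D_MM in intron 2 of Abca1, the cholesterol exporter gene, scored 0.9 in control and had no counterpart, and Abca1 itself went from 3.7 to 0.7. RLTR12D, in no GENCODE gene and nearest to Lyz2, the lysozyme gene, scored 1.2 in control. The IL-4 transcript overlapping it most scored 0.2, was not LTR by its midpoint and did not form a matched pair with it. Lyz2 itself went from 2.4 to 1.9 (0.03 after centring). Transcripts of any annotation also fell in most of the 10 genes, as in Abca1 from 45 to 7, and rose in Cd14 from 2 to 3. The fall was thus not confined to LTR transcripts, which were 3.46% and 3.50% of all transcripts of the libraries. So few LTR transcripts show nothing particular to LTR elements. Lower by 2-fold or more were 4 of the 7 genes with both scores, against 8.48% of all genes. The genes were taken from those the study names as repressed by IL-4, with earlier results of these data known, so their direction is no independent evidence.

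Of 38 genes tied to the silencing or restriction of LTR elements, 29 had a score in both libraries, with a median centred ratio of -0.32. At least 2-fold higher were 2 and lower were 3, which is near the 8.09% and 8.48% of all genes. Trim28, the corepressor recruited by KRAB zinc finger proteins, went from 0.3 to 0.6 and Cbx5 from 0.1 to 0.2, both 1.36 after centring. Kdm1a (0.6 to 0.2), Daxx (0.8 to 0.3) and Samhd1 (2.2 to 0.8) were at least 2-fold lower. Setdb1, which methylates histone H3 at silenced elements, went from 2.1 to 1.1 (-0.57). LTR transcripts within or nearest to these genes numbered 10 and 8, the highest being RMER17B in Samhd1 (0.7 to 0.3).

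Markers of the labelled cell type were present. All 9 macrophage markers had a score in both libraries and none moved 2-fold; their summed score was 19.4 in control and 17.0 after IL-4. Adgre1, which encodes F4/80, held 6 and 9 LTR transcripts, led by RLTR20B1 (1.5 to 1.1) and RLTR31D_MM (1.3 to 1.4). Of 5 neutrophil markers 2 had a score in each library (summed 1.1 and 0.4), and the 4 B cell, 4 T cell and 5 fibroblast markers had none.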

How the data were processed

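GRO-seq was analysed in 2 libraries of mouse bone marrow-derived macrophages, unstimulated and after IL-4 for 1 hr. The authors aligned reads to mm10 with BWA under default settings and called transcripts in each library with HOMER, whose tools also annotated each transcript by its midpoint. The submitters' processing notes list BWA 0.7.10, SAMtools 0.1.19 and HOMER 4.2. The deposited value is the transcript score to 1 decimal; its scaling and the read depth are not given in the sources used here.

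LTR transcripts were selected by class and paired by reciprocal best overlap on the same strand (1 bp or more). Log2 ratios were centred on all pairs, and 3 pairs with a score of 0 were left out. A change was 2-fold or more, ties included, and rounding ranges used 0.05 on each score. Host genes came from GENCODE M21, by the midpoint. Shares have 95% Wilson intervals. With 1 library per group no test was run. Named members were the 5 highest scores per library, the 5 highest without a counterpart, the 5 largest increases and decreases among pairs whose higher score reached the median of the LTR pairs (nearest ratio allowed by rounding), the 10 most frequent names, and the members in the gene lists. Members and gene lists were chosen with earlier results of these data known. Values of 1 gene are not reported here. Pairing and counting were tested on simulated data. Python 3.11.15, pandas 2.3.3 and scipy 1.17.1 were used.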

Additional observations from a re-analysis of the deposited data

How the results depend on the processing

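Of 43 alternative values, 14 stayed close to the reported one and 29 moved. Shares and counts have no sign, so only the median ratio could change sign, and it did not. It was 0 with a score of at least 0.3 in both libraries and 0 for pairs that are LTR in both. By score times length it was -0.02. The balance of higher and lower pairs turned in 1 setting. The limits below are of the score, its rounding and the unknown depth, with 1 library per condition.

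The LTR share in control was 3.01% with a score of at least 0.3, 2.96% among the 21561 highest scores, 2.66% at 300 bp or longer (3.39% after IL-4) and 3.17% of summed length. After IL-4 it was 2.64% at 0.3 or more and 2.74% among the 21561 highest scores. Shares without a counterpart were 54.6% and 72.1% when 50% of the transcript had to overlap, and 33.2% and 27.6% at 0.3 or more. The median ratio without centring was -0.42. Pairs at least 2-fold higher numbered 37 over the rounding range, 30 with 0.3 or more in both libraries, 45 with 50% overlap of both and 192 by score times length. Pairs at least 2-fold lower numbered 42, 34 and 77 under the first 3 of these, and 323 without centring, where the shift of all pairs is no longer removed. With score times length the balance turned, to 192 higher and 166 lower, and all pairs had 19.2% and 17.1%. Pairs that are LTR in both libraries, a choice made after seeing the data, numbered 62 higher and 81 lower of 563. The lower share stayed above that of all pairs in each of these settings.

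At 0.3 or more, ERVK was 49.4% in control and 43.5% after IL-4, ERVL-MaLR 33.3% in control and 43.3% after IL-4, ERVL 10.4% and ERV1 2.86% after IL-4. Introns held 89.4% after IL-4, and sense shares were 99.0% and 99.5%. The cause of these moves was not tested, beyond the fewer transcripts that a filter leaves. Motif shares in fixed windows around midpoints were not run, as that needs a genome sequence. No paired analysis was possible because each condition has 1 library, so leaving one out was not possible either.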
